A study of Homo sapiens with 30 samples.

Results

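10 genes of the cell death machinery were followed across every extract and dose: the death receptor genes FAS, TNFRSF10A and TNFRSF10B, the decoy receptor gene TNFRSF10D, the inhibitor gene CFLAR, the BH3-only genes BBC3, PMAIP1 and BCL2L11, and the survival genes BCL2L1 and MCL1. They were chosen by symbol, through the Ensembl identifiers of the table, and all 10 of the 60675 genes in the table were found and passed the filter on low counts. The cells were A549, an established human line derived from a lung adenocarcinoma, and were exposed for 24 h to ethanol extracts of formulas used in Korean herbal medicine. Soshiho-tang and Yijin-tang were given at 20, 100 and 500 µg/mL in 3 libraries per dose, and Okbyeongpung-san at the same doses in 2 libraries per dose. Soyo-san was given at the same doses in 1 library per dose, so its values carry no test. The solvent group, here called vehicle, had 3 libraries and received 0.1% DMSO per the labels. All groups are the same line with no added gene or deletion, and the labels do not say whether the libraries of a group came from separate cultures, so p-values measure the spread between libraries, which may be technical.

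Cells can start apoptosis from the membrane or from the mitochondrion. On the outer route, ligands bind FAS or the TRAIL receptors encoded by TNFRSF10A (DR4) and TNFRSF10B (DR5), whose death domains recruit the adaptor FADD and caspase-8. TNFRSF10D binds TRAIL without a full death domain, and CFLAR encodes cFLIP, which competes with caspase-8 at the receptor. On the inner route, BH3-only proteins bind and neutralise survival proteins. PUMA (BBC3) and BIM (BCL2L11) bind both BCL-xL (BCL2L1) and MCL1, and NOXA (PMAIP1) binds MCL1. FAS, TNFRSF10B, BBC3 and PMAIP1 are textbook targets of the DNA damage response, and TNFRSF10B, PMAIP1 and BBC3 are also known to respond to the stress factors ATF4 and CHOP (DDIT3).

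The start regions of 4 of these genes are printed because the genes moved apart at the highest dose of Soshiho-tang: FAS, BBC3 and PMAIP1 were higher and BCL2L11 was lower than at the lower doses. Each run holds 250 bases before and 50 after a RefSeq start site on GRCh38.p14, 5′ to 3′ on the strand of the gene: FAS at chr10:88990548-88990847 (plus strand), BBC3 at chr19:47232618-47232917 (minus), PMAIP1 at chr18:59899746-59900045 (plus) and BCL2L11 at chr2:111120664-111120963 (plus). Capitals mark matches to the AP-1 site TGANTCA or to the cyclic AMP response element half-site TGACGT on either strand.
FAS: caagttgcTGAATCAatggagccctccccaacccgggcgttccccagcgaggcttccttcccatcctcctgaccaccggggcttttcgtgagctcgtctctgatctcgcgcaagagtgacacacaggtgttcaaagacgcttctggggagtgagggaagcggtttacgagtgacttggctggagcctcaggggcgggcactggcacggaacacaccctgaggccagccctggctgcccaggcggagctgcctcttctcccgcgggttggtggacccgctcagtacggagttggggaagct
BBC3: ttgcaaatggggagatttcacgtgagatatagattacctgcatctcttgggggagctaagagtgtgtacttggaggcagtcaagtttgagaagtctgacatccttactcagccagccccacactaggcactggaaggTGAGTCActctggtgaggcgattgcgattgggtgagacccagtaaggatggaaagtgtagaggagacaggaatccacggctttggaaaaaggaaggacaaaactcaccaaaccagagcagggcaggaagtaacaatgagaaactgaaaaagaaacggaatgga
PMAIP1: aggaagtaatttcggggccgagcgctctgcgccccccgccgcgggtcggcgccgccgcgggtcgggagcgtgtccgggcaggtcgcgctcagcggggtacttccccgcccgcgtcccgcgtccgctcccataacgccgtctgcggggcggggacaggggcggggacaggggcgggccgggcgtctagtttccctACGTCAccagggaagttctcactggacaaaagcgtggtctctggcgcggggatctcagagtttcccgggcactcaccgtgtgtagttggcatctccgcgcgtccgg
BCL2L11: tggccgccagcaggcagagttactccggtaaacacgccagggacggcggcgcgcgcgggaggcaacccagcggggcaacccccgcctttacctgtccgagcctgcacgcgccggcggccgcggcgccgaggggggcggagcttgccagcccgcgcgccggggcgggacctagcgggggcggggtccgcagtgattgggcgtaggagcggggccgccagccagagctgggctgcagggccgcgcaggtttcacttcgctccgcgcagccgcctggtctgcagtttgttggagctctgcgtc
FAS held an AP-1 match that began 242 bases before its start site, and BBC3 held one 113 bases before its own. PMAIP1 held a half-site match 56 bases before its start. Of 34796 RefSeq start regions of the same length, 7.73% held an AP-1 match and 7.97% a half-site match. BCL2L11 held neither. CFLAR, whose window is not printed, was also higher at 500 µg/mL than at the lower doses, and it held neither. The window of BCL2L1, which was not called between these doses, held neither as well. A match therefore did not separate the genes that were higher from BCL2L11. The GC box GGGCGG, not in capitals, was found 4 times in PMAIP1, 3 times in BCL2L11 and 1 time each in FAS and CFLAR. It was present in 44.9% of all start regions. The C/EBP-ATF response element TGATGNAAN was present in 3.63% of start regions and an NF-kappa-B site pattern of 10 letters in 1.91%. Neither was matched in these windows or in those of CFLAR and BCL2L1. A match is a description of letters, and a window without one says nothing about a factor.

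The deposited values are RSEM expected counts per gene. Levels are given as counts per 1000000 counts of the TMM-adjusted library total (CPM), and differences as log2 fold changes ± standard error (SE). Libraries held between 19833106 and 22327632 counts for vehicle and between 24560758 and 38008449 for treated cells. The share of counts from 13 mitochondrially encoded messenger RNAs was 6.22% to 9.89% in treated libraries and 10.5% to 10.9% in vehicle libraries, so that vehicle stood apart from every extract and dose in depth and in this share. For that reason comparisons between doses and between extracts, which do not use vehicle, are given as well; Yijin-tang and Okbyeongpung-san at 100 µg/mL were compared with vehicle alone. Epithelial and A549 markers summed to between 17477 and 20636 CPM in all 30 libraries, while 9 immune markers summed to at most 22.8 CPM and 6 endothelial markers to at most 0.593 CPM. Most of the immune sum came from CD68 (6.82 to 17.1 CPM) and CD14 (1.68 to 4.35 CPM), and CD3D, CD3E and MS4A1 were at 0. Fibroblast markers summed to 26.7 to 32.9 CPM at 500 µg/mL of Soshiho-tang and 42.3 to 44.5 CPM in vehicle, and their part in any result was not tested. A level is a share of the messenger RNA of a culture, in which fewer cells and less RNA per cell cannot be told apart.

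By the median over all 30 libraries the survival genes were the most abundant per length. In CPM per kilobase of the longest annotated transcript, the median level was 58.4 for BCL2L1 and 44.6 for MCL1, followed by 31.8 for TNFRSF10B. The ranges over libraries, 48.3 to 67.5 for BCL2L1 and 38.9 to 53.3 for MCL1, overlapped, as did those of MCL1 and TNFRSF10B (30.1 to 57.5). At 500 µg/mL of Soshiho-tang TNFRSF10B lay above MCL1 in each library, with 51.3, 57.5 and 54.8 against 46.8, 52.7 and 53.3. That order depends on the length used. Per kilobase of all annotated exons joined (5158 bases for TNFRSF10B, 4371 for MCL1), MCL1 lay above TNFRSF10B in each of these libraries. TNFRSF10D (9.71), TNFRSF10A (8.54), PMAIP1 (6.24), BCL2L11 (5.66), CFLAR (4.53) and FAS (3.85) came next, each overlapping its neighbour in range, and BBC3 was lowest at 2.62. DR5 was thus the most abundant of the 4 receptor transcripts in these cells, and the decoy TNFRSF10D and DR4 lay close together. FASLG, which encodes the ligand of FAS, had at most 1 count in any library, and TNFSF10, which encodes TRAIL, at most 7.

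With Soshiho-tang at 500 µg/mL, 7 of the 10 genes rose over vehicle: the 3 death receptor genes, CFLAR, BBC3, PMAIP1 and MCL1. The rises ranged from 1.17-fold for CFLAR to 2.11-fold for PMAIP1. None of the 10 was called lower. Calls rest on edgeR's quasi-likelihood test with Benjamini-Hochberg adjustment across the 17459 genes that passed the filter, at a threshold of 0.05. In this comparison 33.1% of all genes were called and 17.2% were called higher. The median log2 fold change was 0.25 over the 10 genes and 0.01 over all genes tested.

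**Figure D1:**
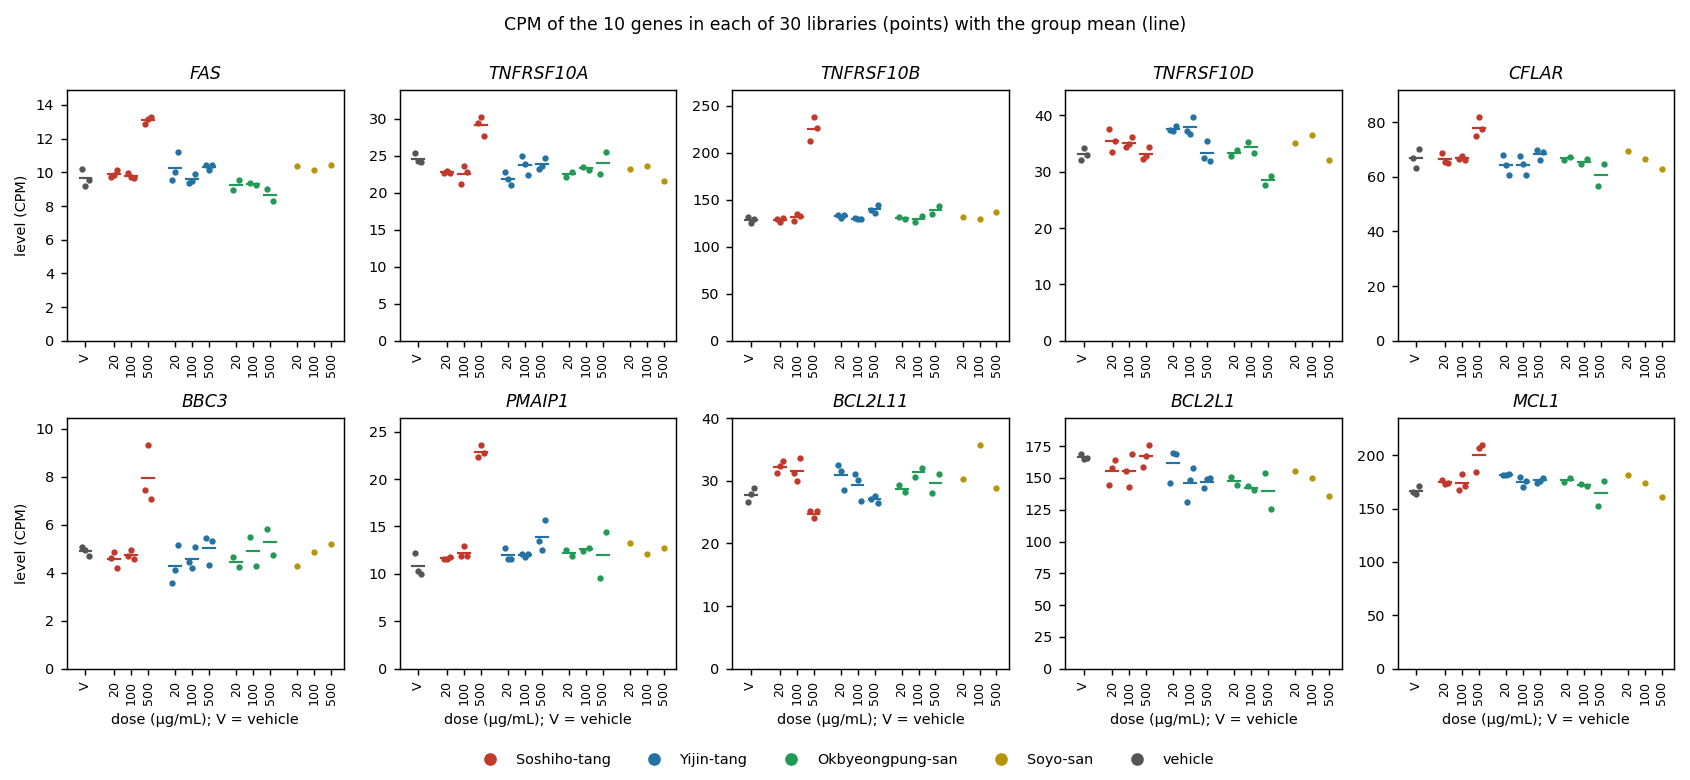
Level in CPM (vertical axis, from 0) of each of the 10 genes in every library, with extract doses in µg/mL and vehicle (V) along the horizontal axis; points are libraries and short lines are group means. At 500 µg/mL of Soshiho-tang, 7 genes lie above all 27 other libraries, BCL2L11 lies below all of them, and TNFRSF10D and BCL2L1 lie within their range; of all 17459 genes tested, 6.02% lie above and 4.87% below in the same way.

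Among the receptors, TNFRSF10B (ENSG00000120889, chr8:23020133-23069179, minus strand of GRCh38) moved most. It had 213, 238 and 227 CPM at 500 µg/mL of Soshiho-tang, against 132, 125 and 130 CPM in vehicle. The groups lay far apart, and the other 24 libraries reached at most 145 CPM. The log2 fold change over vehicle was 0.81 ± 0.05 (adjusted p = 2.31e-12, edgeR), a 1.75-fold rise.

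FAS (ENSG00000026103, chr10:88990582-89015785, plus strand), the receptor of FAS ligand, had 12.8, 13.1 and 13.3 CPM at 500 µg/mL of Soshiho-tang, against 10.2, 9.19 and 9.55 CPM in vehicle. The 3 treated libraries were nearly level with each other and above every other library, of which the highest had 11.2 CPM. FAS rose by 0.44 ± 0.07 on the log2 scale (adjusted p = 1.85e-05, edgeR). TNFRSF10A (ENSG00000104689, chr8:23190452-23225126, minus strand) had 29.4, 30.2 and 27.6 CPM against 25.3, 24.3 and 24.1 CPM in vehicle, a smaller rise of 0.24 ± 0.06 (adjusted p = 0.00258, edgeR). The decoy TNFRSF10D (ENSG00000173530, chr8:23135588-23164030, minus strand) had 32.3, 32.9 and 34.4 CPM against 32.1, 34.2 and 33.0 CPM in vehicle. Its groups overlapped, and the 95% interval of the log2 difference ran from -0.10 to 0.11. The transcript of the inhibitor cFLIP, CFLAR (ENSG00000003402, chr2:201116104-201176687, plus strand), had 74.8, 81.9 and 77.3 CPM against 66.8, 63.2 and 70.3 CPM in vehicle. The ranges did not overlap, and it rose by 0.23 ± 0.06 (adjusted p = 0.00337, edgeR).

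Of the BH3-only genes, PMAIP1 (ENSG00000141682, chr18:59899948-59904306, plus strand) rose most. It had 22.3, 23.6 and 22.7 CPM at 500 µg/mL of Soshiho-tang, against 12.2, 10.3 and 10.0 CPM in vehicle, a log2 fold change of 1.08 ± 0.11 (adjusted p = 3.05e-08, edgeR). The treated libraries lay above all others, of which the highest, at 500 µg/mL of Yijin-tang, had 15.7 CPM. BBC3 (ENSG00000105327, chr19:47220822-47232766, minus strand) had 7.43, 9.33 and 7.06 CPM against 5.08, 4.97 and 4.70 CPM in vehicle and rose by 0.69 ± 0.14 (adjusted p = 0.000373, edgeR). It was the least abundant of the 10, with 97 to 264 counts per library, and its SE was the largest. BCL2L11 (ENSG00000153094, chr2:111119378-111168447, plus strand) was the BH3-only member that did not rise. Its levels were 25.1, 24.0 and 25.1 CPM against 26.6, 28.0 and 28.8 CPM in vehicle, and all treated libraries lay below all vehicle libraries. The difference of -0.17 ± 0.06 did not pass the test (adjusted p = 0.0519, edgeR), although 6 of 14 other settings called it lower, with adjusted p between 0.0164 and 0.25 over all 14.

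Of the survival genes, MCL1 passed the test and BCL2L1 did not. MCL1 (ENSG00000143384, chr1:150574551-150579738, minus strand), a short-lived survival protein that NOXA binds, had 184, 207 and 210 CPM at 500 µg/mL of Soshiho-tang against 166, 163 and 171 CPM in vehicle, and rose by 0.26 ± 0.05 (adjusted p = 0.000318, edgeR). BCL2L1 (ENSG00000171552, chr20:31664452-31723989, minus strand) had 159, 168 and 176 CPM against 169, 165 and 166 CPM in vehicle. The BCL2L1 groups overlapped, and the 95% interval of the log2 difference ran from -0.14 to 0.16.

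Against the lowest dose of the same extract, a comparison without vehicle, 7 of the 10 genes were higher and BCL2L11 was lower at 500 µg/mL, where 20.6% of all genes were called, 10.3% higher and 10.2% lower. The 7 were those that rose over vehicle. The comparisons share the libraries at 500 µg/mL, so they are given side by side and not as support of each other. TNFRSF10B was 0.81 ± 0.04 higher on the log2 scale (129 ± 2 CPM at 20 µg/mL, SD, n = 3), PMAIP1 0.97 ± 0.10, BBC3 0.80 ± 0.13, FAS 0.40 ± 0.06 and TNFRSF10A 0.36 ± 0.06. CFLAR and MCL1 were higher by 0.23 ± 0.06 and 0.20 ± 0.05. BCL2L11 fell by 0.38 on the log2 scale (SE 0.06, adjusted p = 8.3e-05, edgeR), with 25.1, 24.0 and 25.1 CPM at 500 µg/mL and 31.2, 32.3 and 33.2 CPM at 20 µg/mL. The mitochondrially encoded messenger RNAs, of which 12 of 13 were lower than in vehicle with a list median of -0.83, had 1 of 13 lower in this comparison and a median of -0.14.

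The change lay between 100 and 500 µg/mL. TNFRSF10B averaged 129 ± 4 CPM in vehicle, 129 ± 2 CPM at 20 µg/mL, 132 ± 4 CPM at 100 µg/mL and 226 ± 13 CPM at 500 µg/mL of Soshiho-tang (SD, n = 3 each). PMAIP1 averaged 10.8 ± 1.2, 11.7 ± 0.1, 12.2 ± 0.6 and 22.9 ± 0.7 CPM over the same series. In comparisons added after the data were seen, 7 of the genes were higher and BCL2L11 was lower at 500 than at 100 µg/mL (16.7% of all genes called, 8.37% higher and 8.36% lower), and none of the 10 was called between 100 and 20 µg/mL. In that last comparison edgeR and DESeq2 each called no gene at all (0% of genes), and 422 genes, none of them among the 10, had an unadjusted p below 0.05. Against vehicle, edgeR and DESeq2 each called 0 of the 10 at 100 µg/mL (10.8% of all genes called by edgeR), where 2 had an unadjusted p below 0.05, and edgeR called 1 at 20 µg/mL (8.02%, and 4.06% higher). That 1 was BCL2L11, which was 0.22 ± 0.06 higher than vehicle at 20 µg/mL (adjusted p = 0.0389, edgeR), with 31.2, 32.3 and 33.2 CPM against 26.6, 28.0 and 28.8 CPM in vehicle. DESeq2 did not call it (adjusted p = 0.0516), and it was lost when any 1 library of either group was left out. BCL2L11 thus had its lowest level of any group at 500 µg/mL and one of its highest at 20 µg/mL of the same extract.

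**Figure D2:**
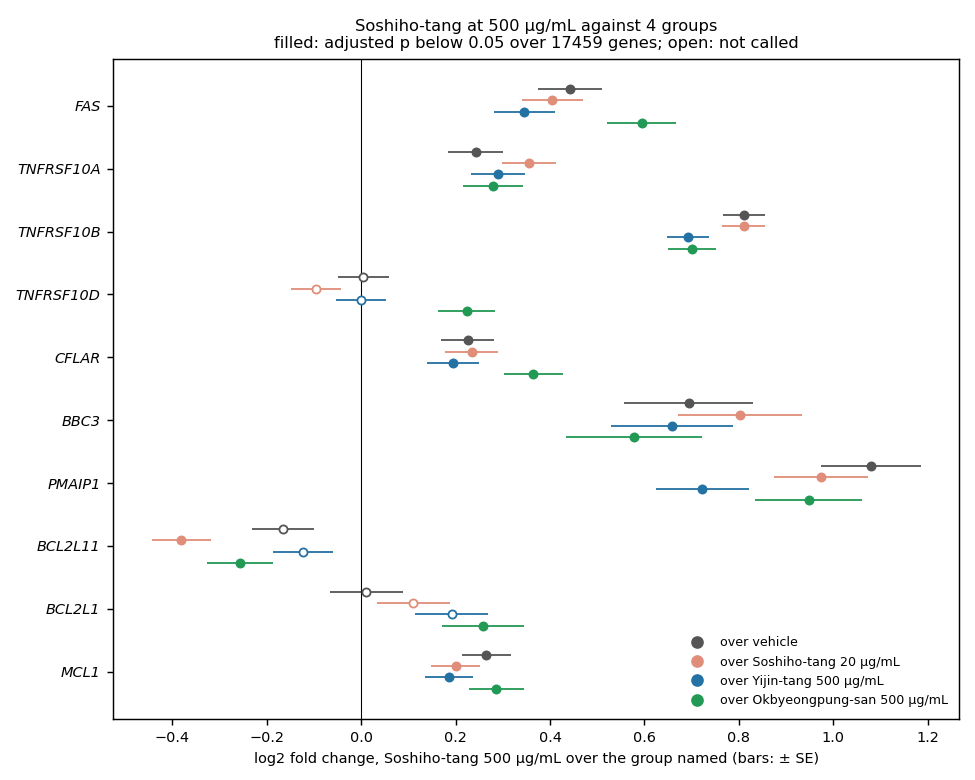
Log2 fold change (horizontal axis) of each of the 10 genes at 500 µg/mL of Soshiho-tang over each of vehicle, Soshiho-tang at 20 µg/mL, Yijin-tang at 500 µg/mL and Okbyeongpung-san at 500 µg/mL; bars are ± SE, filled points passed the test over 17459 genes and open points did not. TNFRSF10B, PMAIP1, BBC3 and FAS lie to the right in all 4 comparisons, and BCL2L11 lies to the left in all 4, filled in 2 of them.

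Set against Yijin-tang at the same 500 µg/mL, Soshiho-tang gave higher levels of 7 genes, which were those that rose over vehicle, where 12.6% of all genes were called and 6.31% were higher. PMAIP1 was higher by 0.72 ± 0.10, TNFRSF10B by 0.69 ± 0.04 and BBC3 by 0.66 ± 0.13 on the log2 scale. FAS (0.35 ± 0.06), TNFRSF10A (0.29 ± 0.06), CFLAR (0.19 ± 0.06) and MCL1 (0.19 ± 0.05) followed. CFLAR and MCL1 had adjusted p = 0.0212 and 0.0164 (edgeR) and lost the call in 3 and 4 of 14 other settings. BCL2L11, TNFRSF10D and BCL2L1 gave -0.12 ± 0.06, 0.00 ± 0.05 and 0.19 ± 0.08 and were not called. BCL2L1 was called higher in 3 of 14 other settings, such as the fit of only these groups (adjusted p = 0.019), with its difference at 0.20. All 3 Soshiho-tang libraries lay above all 3 Yijin-tang libraries for the 7 genes and for BCL2L1, and below them for BCL2L11, where 16.2% of all genes lay above and 16.7% below. All libraries of vehicle, Soshiho-tang and Yijin-tang carry the same batch letter in their titles.

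Against Okbyeongpung-san at 500 µg/mL all 10 genes were called, 9 higher and BCL2L11 lower, where 18.7% of all genes were called, 9.14% higher and 9.55% lower. FAS was higher by 0.59 ± 0.07, TNFRSF10B by 0.70 ± 0.05 and PMAIP1 by 0.95 ± 0.11. Those 3 held in all 13 other settings, and the other 7 each lost the call in at least 1. The 2 libraries of Okbyeongpung-san at this dose differed from each other: PMAIP1 had 9.53 CPM in replicate 2 and 14.4 CPM in replicate 3, MCL1 153 and 176 CPM, and BCL2L1 154 and 126 CPM. Replicate 2 is of the same batch letter as Soshiho-tang and was the deepest library of the series, and replicate 3 is of the other letter. Replicate 2 also had the highest mitochondrial share of the treated libraries (9.89%, against 6.73% in replicate 3). Its share of values that were not whole (11.6%) was the highest of all 30 libraries. Leaving out replicate 3 leaves this library alone in its group. With replicate 3 left out, which keeps the comparison within a batch letter, BBC3 (0.45), BCL2L11 (-0.18) and BCL2L1 (0.13) were not called. With replicate 2 left out, TNFRSF10A (0.19), TNFRSF10D (0.19) and MCL1 (0.19) were not called. With the batch letter as a term, BCL2L1 alone lost its call (adjusted p = 0.112, edgeR).

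**Figure D3:**
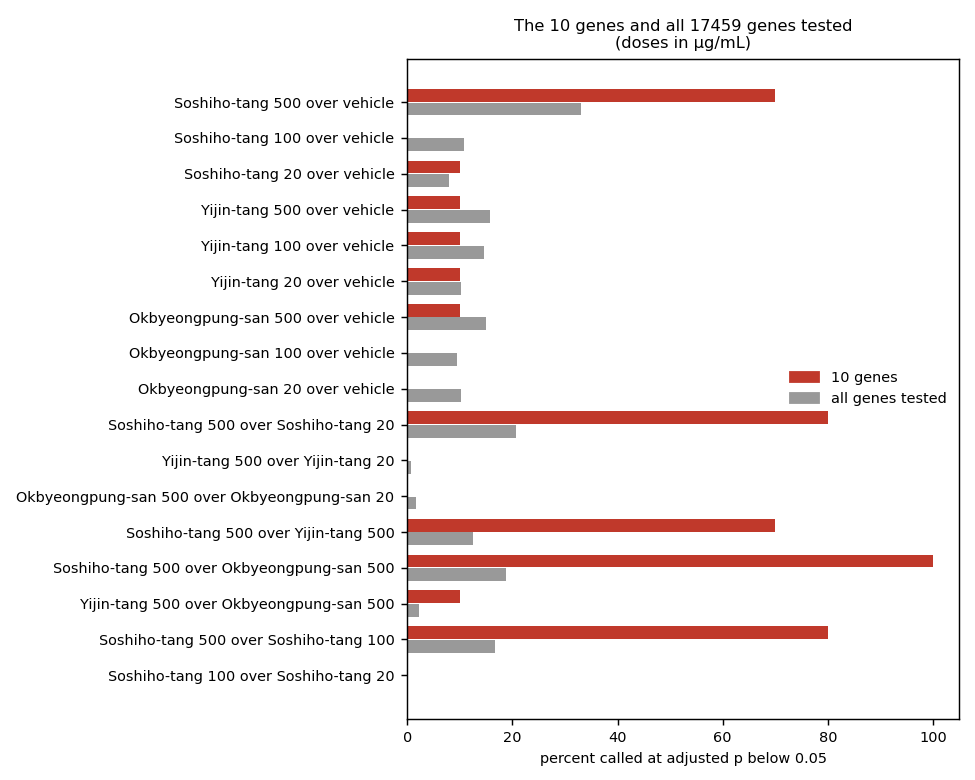
Percent of genes called at an adjusted p below 0.05 (horizontal axis) among the 10 genes and among all 17459 genes tested, for the 15 comparisons and the 2 added later. The share among the 10 exceeds that among all genes in the 5 comparisons with Soshiho-tang at 500 µg/mL, with 70% against 33.1% over vehicle, and in 2 others that rest on 1 gene each.

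Few of the 10 genes were called with the other extracts. With Yijin-tang at 500 µg/mL PMAIP1 rose over vehicle, with 13.5, 12.5 and 15.7 CPM against 12.2, 10.3 and 10.0 CPM (log2 fold change 0.36 ± 0.11, adjusted p = 0.0255, edgeR), and no other member was called where 15.7% of all genes were (8.12% higher). The PMAIP1 call was lost in 5 of 14 other settings, with the offset for transcript length and GC content (adjusted p = 0.0503), with that offset and the block, and without vehicle replicate 2, vehicle replicate 3 or Yijin-tang replicate 3, with adjusted p up to 0.155. TNFRSF10B (higher by 0.12) and BCL2L1 (lower, -0.20 to -0.18) gained a call in 3 settings each, with adjusted p of 0.0313 to 0.0462 and of 0.00415 to 0.0293. TNFRSF10D, the decoy, was higher at the lower doses of Yijin-tang: 0.18 ± 0.05 at 20 µg/mL (10.2% of all genes called, 5.09% higher) and 0.19 ± 0.05 at 100 µg/mL (14.7%, 7.89% higher). Its levels were at least 37.2 CPM in all 3 libraries at 20 µg/mL and 37.1, 36.7 and 39.7 CPM at 100 µg/mL, against 32.1, 34.2 and 33.0 CPM in vehicle. At 500 µg/mL of Yijin-tang it had 32.5, 35.4 and 32.0 CPM and overlapped vehicle. The call at 100 µg/mL was lost in 4 of 14 other settings, without the low-count filter and without vehicle replicate 1, vehicle replicate 3 or Yijin-tang replicate 3 (adjusted p up to 0.112). The call at 20 µg/mL was lost in 9 of 14, among them every fit with 1 library left out (adjusted p up to 0.131). Between 500 and 20 µg/mL of Yijin-tang edgeR and DESeq2 each called 0 of the 10 (0.705% of all genes called by edgeR), and 4 had an unadjusted p below 0.05.

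TNFRSF10D was also the only member called for Okbyeongpung-san over vehicle in the fit of all groups, and there it fell. At 500 µg/mL it had 27.7 and 29.2 CPM, against 32.1, 34.2 and 33.0 CPM in vehicle, a log2 fold change of -0.22 ± 0.06 (adjusted p = 0.0196, edgeR; 14.9% of all genes called, 7.76% lower). This call was lost without the low-count filter (adjusted p = 0.188), in a fit of only these groups (adjusted p = 0.128) and without replicate 2 of either group (adjusted p = 0.161 for that of the extract). BCL2L1 had 154 and 126 CPM at 500 µg/mL against 169, 165 and 166 CPM in vehicle, a difference of -0.25 ± 0.09 that was not called (adjusted p = 0.0558, edgeR). It was called lower in 6 of 13 other settings at 500 µg/mL, DESeq2 among them (adjusted p = 0.0353), in 4 of 13 at 100 µg/mL and in 2 of 13 at 20 µg/mL. With the batch letter as a term it was not called at 500 µg/mL (-0.19, adjusted p = 0.143). Against vehicle at 20 and 100 µg/mL, edgeR and DESeq2 each called 0 of the 10 (10.2% and 9.49% of all genes called by edgeR), and 0 and 2 had an unadjusted p below 0.05. Between 500 and 20 µg/mL both tools called 0 as well (1.59%), with 1 at an unadjusted p below 0.05. With replicate 3 at 500 µg/mL left out, the log2 fold change over vehicle was -0.26 for TNFRSF10D and -0.24 for CFLAR. With replicate 2 left out, it was 0.41 for PMAIP1 and -0.40 for BCL2L1. Each of these fits leaves 1 library of the extract at this dose. With replicate 3 left out, 4 genes fell between 500 and 20 µg/mL: TNFRSF10D, CFLAR, PMAIP1 and MCL1, by 0.27, 0.24, 0.36 and 0.22 on the log2 scale, where 4054 of all genes tested were called. Between Yijin-tang and Okbyeongpung-san at 500 µg/mL TNFRSF10D alone was called, where 2.31% of all genes were called and 0.853% were higher. It was 0.22 ± 0.06 higher with Yijin-tang (adjusted p = 0.0458, edgeR). This call was lost without the low-count filter (adjusted p = 0.138, edgeR) and in a fit of only these groups (adjusted p = 0.62, edgeR). It was also lost with the length and GC offset (adjusted p = 0.0572, edgeR) and without any 1 Yijin-tang library (adjusted p from 0.0594 to 0.197, edgeR). Without replicate 3 of Okbyeongpung-san 4 of the 10 were called there (4136 genes called in all), and without replicate 2 none was (39 genes called in all).

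Soyo-san had 1 library per dose, and its values show no step like that of Soshiho-tang. Its libraries all carry batch letter D and those of vehicle and Soshiho-tang letter E, so extract and letter cannot be told apart. TNFRSF10B had 132, 130 and 137 CPM at 20, 100 and 500 µg/mL, PMAIP1 13.3, 12.1 and 12.8 CPM, BBC3 4.26, 4.88 and 5.22 CPM, and FAS 10.4, 10.1 and 10.5 CPM. BCL2L11 had 30.4, 35.7 and 28.9 CPM, the middle value being the highest of any of the 30 libraries.

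Genes around the 10 were described from lists of the same pathway. Beside them, 17.2% of all genes were called higher and 16% lower over vehicle at 500 µg/mL of Soshiho-tang. Over 20 µg/mL the shares were 10.3% and 10.2%. Of 6 other receptor and ligand genes that could be tested (12 on the list), none was called over vehicle at 500 µg/mL of Soshiho-tang. Over 20 µg/mL, EDA2R (0.37 ± 0.12) and TNFRSF21 (0.16 ± 0.05) were higher and TNFRSF1A (-0.26 ± 0.08), a TNF receptor, and TNFSF15 (-0.69 ± 0.19) were lower. Of 9 adaptor and initiator caspase genes, TRADD (0.37 ± 0.11) and CASP8 (0.28 ± 0.06) rose over vehicle and CASP2 fell by 0.48 on the log2 scale (SE 0.07). FADD, the adaptor of the receptors, had 0.13 ± 0.12 and was not called. Over 20 µg/mL only CASP2 was called (-0.26 ± 0.07), and CASP8 had 0.07 ± 0.06. The list medians were 0.05 over vehicle and -0.02 over 20 µg/mL.

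Of 7 other BH3-only genes tested, HRK, a BH3-only gene best known from neurons, rose. It had 1.05, 1.59 and 1.27 CPM at 500 µg/mL of Soshiho-tang against 0.26, 0.65 and 0.38 CPM in vehicle, 1.60 ± 0.33 on the log2 scale (adjusted p = 0.000563, edgeR), on only 5 to 45 counts per library in the whole series. BMF fell by 0.75 on the log2 scale (SE 0.21) relative to 20 µg/mL and had -0.09 ± 0.24 relative to vehicle. BID, which caspase-8 cleaves to link the routes, had 0.05 ± 0.07 over vehicle. Of 3 survival genes tested, BCL2L2 (BCL-w) rose by 0.54 ± 0.05 and BCL2A1 by 0.47 ± 0.11 over vehicle, and by 0.55 ± 0.05 and 0.48 ± 0.10 over 20 µg/mL. BCL2 had 0.14 ± 0.13 over vehicle and was not called. The effectors gave 0.21 ± 0.07 for BAK1, which was called over vehicle and not over 20 µg/mL, and 0.06 ± 0.08 for BAX, which was not called.

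Downstream, 4 of 13 apoptosome, inhibitor of apoptosis and executioner caspase genes rose over vehicle and 3 fell, with a list median of 0.09. Of all genes, 17.2% rose and 16% fell there. BIRC3, an inhibitor of apoptosis protein, rose by 0.36 ± 0.10 and HTRA2 by 0.31 ± 0.08. APAF1, the scaffold of the apoptosome, fell by 0.31 on the log2 scale (SE 0.08) and BIRC6 by 0.32 (SE 0.11). Over 20 µg/mL, 1 rose (BIRC3) and 4 fell, among them BIRC5 (survivin) and APAF1 by 0.32 and 0.25 on the log2 scale. In that comparison 10.3% of all genes rose and 10.2% fell.

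**Figure D4:**
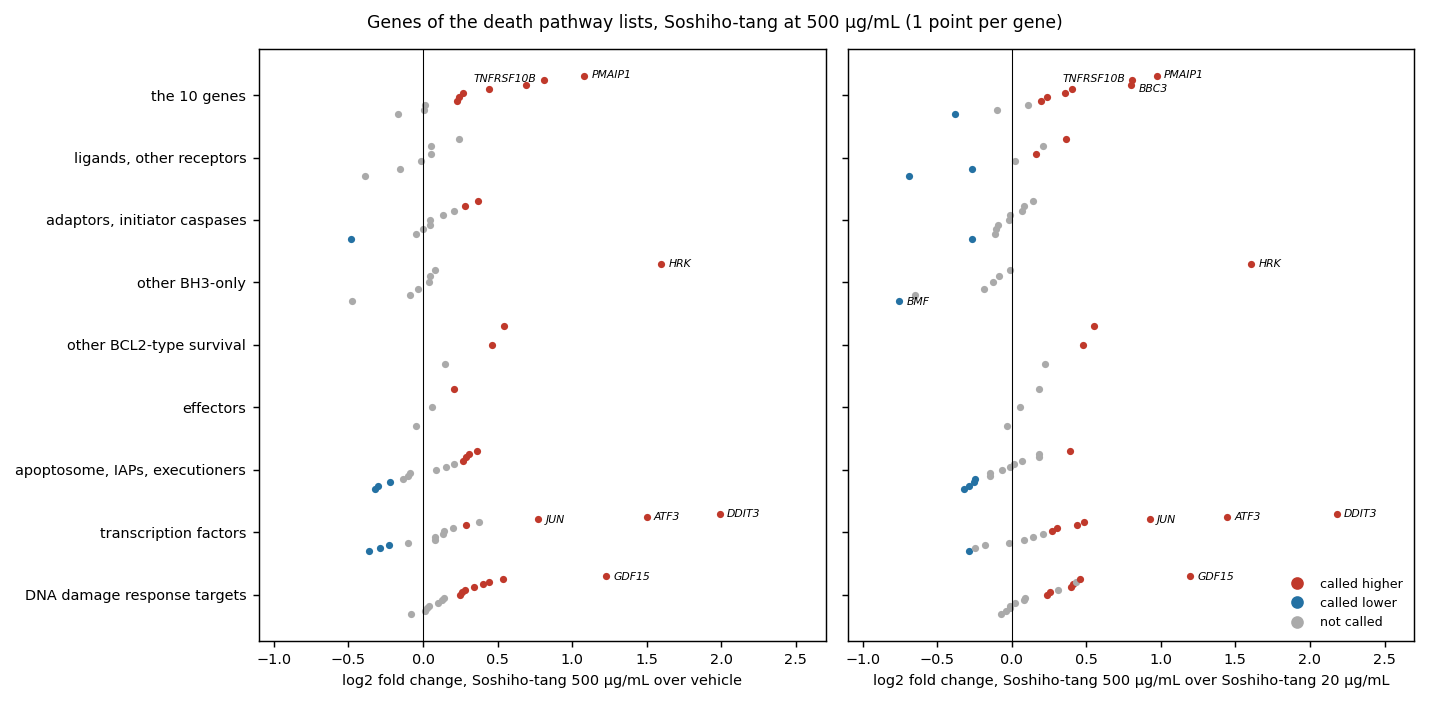
Log2 fold change (horizontal axis) at 500 µg/mL of Soshiho-tang over vehicle (left) and over 20 µg/mL (right), 1 point per gene, by list (vertical axis); red and blue points passed the test over 17459 genes and grey points did not. DDIT3, ATF3, HRK and GDF15 lie beyond every one of the 10 genes in both panels.

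Of 14 transcription factors that are known to act on the 10 genes, 4 rose and 3 fell over vehicle, where 17.2% and 16% of all genes did. Over 20 µg/mL, 7 rose and 1 fell, where 10.3% and 10.2% of all genes did. The list medians were 0.14 over vehicle and 0.24 over 20 µg/mL. DDIT3, which encodes CHOP, had 28.0, 38.5 and 33.8 CPM at 500 µg/mL of Soshiho-tang against 8.58, 9.24 and 7.48 CPM in vehicle and rose by 1.99 ± 0.11. ATF3 had 13.7, 16.2 and 15.0 CPM against 4.76, 5.02 and 6.07 CPM in vehicle, and its rise passed the test. JUN, a subunit of AP-1, rose by 0.77 ± 0.06 and ATF4 by 0.29 ± 0.07. STAT3 fell by 0.36 over vehicle and by 0.29 over 20 µg/mL on the log2 scale (SE 0.04 each). Against Yijin-tang at 500 µg/mL, DDIT3 was higher by 1.74 ± 0.10, ATF3 by 1.44 ± 0.11, JUN by 0.62 ± 0.06 and ATF4 by 0.34 ± 0.07. In Yijin-tang and Okbyeongpung-san at 500 µg/mL against vehicle, DDIT3 gave 0.25 ± 0.12 and 0.01 ± 0.13 and was not called.

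At 500 µg/mL of Soshiho-tang, 8 of 15 other targets of the DNA damage response rose over vehicle and none fell. Of all genes, 17.2% rose and 16% fell there. Over 20 µg/mL, 6 of the 15 rose and none fell, where 10.3% and 10.2% of all genes did. GDF15, a stress-induced secreted factor, was the leading one, with 44.1, 48.8 and 43.3 CPM against 18.9, 19.2 and 20.0 CPM in vehicle. FDXR rose by 0.54 ± 0.10, SPATA18 by 0.44 ± 0.17, PHLDA3 by 0.40 ± 0.09 and CDKN1A, which encodes the cell cycle inhibitor p21, by 0.34 ± 0.07. MDM2, a ubiquitin ligase gene, had 0.10 ± 0.13 over vehicle and 0.31 ± 0.13 over 20 µg/mL and was called in neither. The list medians were 0.25 over vehicle and 0.24 over 20 µg/mL. In Yijin-tang at 500 µg/mL 1 of the 15 rose over vehicle, where 8.12% of all genes did. In Okbyeongpung-san at 500 µg/mL 1 rose and 1 fell, where 14.9% of all genes were called.

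The 10 genes were also placed by likeness of pattern, as Pearson's r of log2 CPM over the 30 libraries against 11183 genes with a symbol and a mean log2 CPM of at least 2. These are descriptions over libraries that share groups and a line, and r was also computed over the 27 libraries other than Soshiho-tang at 500 µg/mL. TNFRSF10B was most like CLGN (r = 0.98), VLDLR (0.98) and SLC1A4 (0.97), with 0.66, 0.65 and 0.68 over the 27. PMAIP1 was most like TCEA1 (0.96), CXCL5 (0.96) and RND3 (0.95), with 0.77, 0.75 and 0.77 over the 27. BBC3 was most like the tRNA synthetase genes CARS1 (0.89) and SARS1 (0.89) and GDF15 (0.88), and FAS most like HKDC1, the chaperone gene HSPA5 and HERPUD1 (0.90 each), all at 0.58 to 0.62 over the 27.

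TNFRSF10A was most like PAQR5 (0.89), SLC7A1 (0.88) and EREG (0.88), with 0.68, 0.59 and 0.56 over the 27. CFLAR was most like DCAF10, FGF2 (0.90 each) and SINHCAF (0.89), with 0.83, 0.84 and 0.80 over the 27, and MCL1 like HSPA13 (0.88), TMX3 (0.87) and TCIM (0.86), with 0.80, 0.83 and 0.68. BCL2L11 was most like ATP2A2 (0.83), AXIN2 (0.80) and WWTR1 (0.77), with 0.71, 0.68 and 0.61 over the 27. TNFRSF10D was most like DCDC2 (0.76), SEPTIN2 (0.73) and COL5A2 (0.73), with 0.80, 0.74 and 0.73 over the 27, and BCL2L1 like KLF10 (0.80), WWC1 (0.77) and APLP2 (0.75), with 0.76, 0.73 and 0.76. Within the 10, TNFRSF10B and PMAIP1 were closest at r = 0.94 over 30 libraries and 0.64 over 27. TNFRSF10B and FAS had 0.83 over 30 and 0.07 over 27, and BCL2L11 ran against TNFRSF10B with -0.65 over 30 and -0.29 over 27.

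Some of the counts could hold reads of a neighbour. BCL2L11 overlaps exons of MIR4435-2HG on the opposite strand, which had 449 to 979 counts per library, TNFRSF10B those of RHOBTB2 (1022 to 2143), FAS those of ACTA2 (140 to 348), BCL2L1 those of ABALON (77 to 157) and TNFRSF10A those of AC100861.1 (70 to 165) and TNFRSF10A-AS1 (31 to 110). The kit keeps strand per the labels, and the strand setting of the counting is not given in the sources used here. The expected counts of CFLAR were not whole in all 30 libraries, those of BCL2L1 in 29, of TNFRSF10A in 25 and of FAS in 13, and those of the other 6 genes were whole, to within 1e-09, in every library.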

How the data were processed

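Messenger RNA libraries of A549 cells (30 in all) were sequenced as 100 bp read pairs on an MGI instrument from a strand-keeping kit, per the labels' protocols. The authors deposited 1 table of RSEM expected counts per gene, not scaled to depth, and CPM was computed from them. The submitters' processing notes name RSEM 1.3.3 and STAR 2.7.3a, Trim Galore 0.6.5 and FastQC 0.11.9, and the build hg38 (GRCh38). Which annotation release and which strand option the counting used is not given in the sources used here. The labels give the solvent as 0.1% DMSO and the series text gives 2%. The series text also says that libraries with too little RNA were dropped and that extracts that were toxic at low concentration were given at lower doses, while the labels give 20, 100 and 500 µg/mL for every extract.

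Expected counts were rounded to whole numbers. Genes were kept by edgeR's filterByExpr, scaled by TMM and tested with edgeR's quasi-likelihood test (edgeR 4.0.16, R 4.3.3) in 1 fit of 27 libraries in 10 groups, without the Soyo-san libraries. Benjamini-Hochberg adjustment ran over all 17459 genes tested, and a gene was called at an adjusted p below 0.05. The common dispersion was 0.00474. Each SE is the size of the log2 fold change over the root of F, and intervals span 1.96 SE to each side. DESeq2 1.42.0, other scalings and filters, a length and GC offset (lowess with a span of 0.3), a replicate block and a batch term were run as alternatives. The edgeR fit was tested on simulated data. Figures were drawn with matplotlib 3.10.9, and tables were built with Python 3.11.15.

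Gene symbols were matched for 41209 of 60675 identifiers, and gene positions were taken from GENCODE release 29. Start regions are from RefSeq, and windows were kept for 6 of the 10 genes. Those of TNFRSF10A, TNFRSF10B and TNFRSF10D were left out by choice, and none was found for MCL1. No 2 libraries of the same group agreed within sampling noise. The members and the gene lists were chosen with earlier results of these data known. Besides the 10 members and key genes of the pathway, the text names up to 4 called genes with the largest change from each list, and the 3 genes most like each member. Some genes of these lists are not reported here by name.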

Additional observations from a re-analysis of the deposited data

Results flagged for a closer look

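At 500 µg/mL the extracts differed from each other in the 10 genes, by edgeR's quasi-likelihood test of the difference itself. Soshiho-tang was above Yijin-tang on the log2 scale by 0.35 for FAS, 0.29 for TNFRSF10A, 0.69 for TNFRSF10B, 0.19 for CFLAR, 0.66 for BBC3, 0.72 for PMAIP1 and 0.19 for MCL1.

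Soshiho-tang was above Okbyeongpung-san by 0.59 for FAS, 0.28 for TNFRSF10A, 0.70 for TNFRSF10B, 0.22 for TNFRSF10D, 0.36 for CFLAR, 0.58 for BBC3, 0.95 for PMAIP1, 0.26 for BCL2L1 and 0.29 for MCL1, and below it for BCL2L11 (-0.26). Yijin-tang was above Okbyeongpung-san by 0.22 for TNFRSF10D, a call that was lost in a fit of only these groups and without any 1 Yijin-tang library. The Okbyeongpung-san values rest on 2 libraries of different batch letters, and their part in these differences was not tested beyond the fits that leave 1 of them out.

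Among the Soyo-san libraries, which entered no test, BCL2L11 had 28.9 CPM at its lowest, just above the highest vehicle library. Soyo-san carries another batch letter than vehicle in every library, so extract and letter cannot be told apart here.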

How the results depend on the processing

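No call of the 10 genes changed its direction. Of 1360 gene values under alternatives that keep all libraries, 1294 kept their side of the threshold, 24 lost the call and 42 gained it. Of 950 values with 1 library left out, the numbers were 901, 38 and 11. Among the values that kept their side, 133 changed sign, all of them called in neither setting. For Soshiho-tang at 500 µg/mL over vehicle, 7 to 8 members were called in every setting. Where a fit leaves 1 library in a group, that library is assumed to vary like the other groups. BBC3, with 97 to 264 counts per library, limits the precision most. The cause of the changes below was not tested.

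With the length and GC offset, the members called were 1 (Soshiho-tang 100), 2 (Yijin-tang 500, 100 and 20, and Okbyeongpung-san 100) and 3 (Okbyeongpung-san 500) over vehicle, 1 for Yijin-tang 500 over 20 and 0 for Yijin-tang over Okbyeongpung-san at 500 µg/mL. Over all genes the same offset called 2540 (Soshiho-tang 100), 3591, 3211 and 2615 (Yijin-tang 500, 100 and 20), 2408 and 2631 (Okbyeongpung-san 100 and 500) over vehicle and 302 for Yijin-tang over Okbyeongpung-san, and 286 for Yijin-tang 500 over 20 and 3451 for Soshiho-tang over Yijin-tang at 500. DESeq2 called 0 members for Soshiho-tang 20 and Yijin-tang 20 and 2 for Okbyeongpung-san 500 over vehicle, and 434 genes for Okbyeongpung-san 500 over 20. In fits of only the groups compared, genes called were 2993 (Soshiho-tang 20), 4262 (Yijin-tang 500), 436 (Okbyeongpung-san 500), 4573 (100) and 4647 (20) over vehicle, 54 and 0 for Yijin-tang and Okbyeongpung-san 500 over 20, 608 and 3 for Soshiho-tang and Yijin-tang over Okbyeongpung-san at 500, and members were 3 (Yijin-tang 500), 0 (Yijin-tang 20), 0, 2 and 1 (Okbyeongpung-san 500, 100 and 20) over vehicle, and 3 and 0 for Soshiho-tang and Yijin-tang over Okbyeongpung-san. Without the low-count filter, members were 0 for Yijin-tang 100 and 20 over vehicle and for Yijin-tang over Okbyeongpung-san, and genes 241, 889, 909 and 59 for Yijin-tang 500 over 20, Okbyeongpung-san 500 over 20, Yijin-tang over Okbyeongpung-san, and Soshiho-tang 100 over 20. With the batch letter as a term, genes were 1032 and 1169 (Okbyeongpung-san 100 and 20 over vehicle), 436 (500 over 20) and 1711 (Yijin-tang over Okbyeongpung-san, 2 members).

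Whether replicate numbers pair the libraries was not settled. Of 45 pairs of same-numbered libraries in the groups compared, 6 had correlated deviations over 0.1 (range -0.15 to 0.24). All 6 were between doses of the same extract, Soshiho-tang or Yijin-tang. A count over all pairs cannot show whether the number marks shared handling within an extract. With the replicate block, 2 members were called for Okbyeongpung-san 500 and 1 for 100 over vehicle, and 622 genes for Yijin-tang over Okbyeongpung-san. The replicate block with the length and GC offset gave genes of 2894 and 2443 (Soshiho-tang 100 and 20), 3041 (Yijin-tang 20), 3061 and 3075 (Okbyeongpung-san 100 and 20) over vehicle, 393 for Yijin-tang 500 over 20, and 3829 and 4420 for Soshiho-tang 500 over Yijin-tang 500 and over 100, and members of 1 (Soshiho-tang 100), 2 (each dose of Yijin-tang), 3, 2 and 1 (Okbyeongpung-san 500, 100 and 20) over vehicle, 2 for Yijin-tang 500 over 20 and 3 for Yijin-tang over Okbyeongpung-san.

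Leaving out 1 library at a time, genes called over vehicle ranged from 681 to 2137 (Soshiho-tang 100), 512 to 1108 (20, members 0), 1613 to 2403, 1213 to 2405 and 551 to 2070 (Yijin-tang 500, 100 and 20, members 0 to 1, 0 to 1 and 0), and 1224 to 4321, 190 to 1107 and 259 to 1183 (Okbyeongpung-san 500, 100 and 20, members 0 to 2 at 500). They ranged from 69 to 104 and 39 to 4054 for Yijin-tang and Okbyeongpung-san 500 over 20 (members 0 to 4 in the second), 1361 to 1811 for Soshiho-tang over Yijin-tang (members 5 to 7), and 1212 to 5448 and 39 to 4136 for Soshiho-tang and Yijin-tang over Okbyeongpung-san (members 7 to 10 and 0 to 4). Without replicate 3 of Okbyeongpung-san 500, 4321 genes were called over vehicle, 4054 over 20 µg/mL and 4136 for Yijin-tang over it, and without replicate 2, 1224, 44 and 39. Without replicate 3 of Okbyeongpung-san 20, 39 were called for 500 over 20.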
